A study of Mus musculus with 59 samples.

Results

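The comparison set primary mouse microglia without the kinase TBK1 against microglia with it, both kept in interleukin-4 (IL4). Members were the libraries whose titles begin with KO_IL4 (5) and WT_IL4 (5), 10 of the 59 libraries of the series. Microglia, the resident macrophages of the brain, were grown from newborn pups, plated for 16 h and exposed to IL4 at 20 ng/mL for 24 h before RNA sequencing. WT cultures were Tbk1fl/fl without Cre and KO cultures were Tbk1fl/fl with Cx3CR1-Cre. This Cre recombinase is driven by the promoter of the gene for the microglial fractalkine receptor. HET cultures (5 libraries under IL4) were Tbk1fl/+ with the same Cre. WT cultures lack Cre, so Tbk1 loss and the presence of Cre, with the stretch of chromosome around it, cannot be told apart in KO minus WT. In KO minus HET both sides carry Cre. The labels speak of 5 independent cultures per genotype. Untreated libraries (UT, 4 WT and 5 KO) and libraries given lipopolysaccharide at 100 ng/mL (LPS, 5 and 5) are used as a background.

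IL4 binds a receptor that contains IL4RA and signals through JAK kinases to the transcription factor STAT6, which switches macrophages and microglia to the alternative activation programme of arginase, chitinase-like and lectin genes. TBK1 is a serine kinase downstream of nucleic acid sensors and of the TLR adaptor TRIF. It phosphorylates IRF3 and IRF7 for the production of type I interferon and autophagy receptors such as optineurin. Interferon then acts through its receptor on interferon-stimulated genes, many of which keep a low level of transcription in the absence of infection.

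Values are TPM, the usual per-length measure of transcript abundance, which scales each gene by its length and each library to the same total, so the depth of a library is unknown. The 10 libraries held between 13591 and 14317 genes at 1 TPM or more, and Pearson's r across genes between a KO and a WT library ran from 0.957 to 0.986. All 12 microglia markers were tested and their summed level was 11672 to 13312 TPM in KO and 11090 to 13064 TPM in WT, which matches the labelled cell type in both genotypes. Markers of the oligodendrocyte lineage were also present: their sum was 501 to 1894 TPM in KO and 762 to 2449 TPM in WT, highest in WT replicate 1, with 13 of 14 members below 0 in KO minus WT, a median difference of -0.53 and 0 called. Fewer cells of a type and less RNA per cell cannot be told apart in such bulk libraries. The Y-linked gene Ddx3y, chosen after its values were seen, stood at 0.04, 0.279 and 0.17 TPM in KO replicates 3, 4 and 5, against 21.6 and 24.1 TPM in KO replicates 1 and 2 and 13.4 to 41.3 TPM in WT, so the sex of the pups was not balanced between the groups.

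Tbk1 itself (chromosome 10, 121546455 to 121586794, GRCm38.p6) checked the labels. Under IL4 it stood at 42.2, 42.3, 44.3, 44.9 and 46.1 TPM in WT and at 12.3, 23.6, 14.8, 16.0 and 11.1 TPM in KO. Every KO library lay below every WT library, and KO replicate 2 kept the most. The log2 difference was -1.48 ± 0.14 (SE; 95% interval -1.77 to -1.20; adjusted p = 8.98e-09, limma). HET libraries lay between the genotypes, at 27.6 to 34.5 TPM, with no overlap on either side. The KO level is a sum over the whole gene, so transcripts that lack the floxed part and cells that escaped Cre cannot be told apart. Cx3cr1, whose promoter drives the Cre, was at 291 ± 36.3 TPM in KO and 312 ± 57.9 TPM in WT (SD, n = 5 each; log2 difference -0.09, adjusted p = 1).

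Of 15908 genes tested, 4 were called higher in KO (0.0251%) and 3 lower (0.0189%) at an adjusted p under 0.05 in limma's moderated test. The lower genes were Tbk1, Rtp4 and Slfn5, and the higher ones were Rpsa, a ribosomal protein gene, and its pseudogenes Rpsa-ps10, Rpsa-ps2 and Rpsa-ps7. At an unadjusted p under 0.05, 213 genes were higher (1.34%) and 217 lower (1.36%). By sign alone, 9635 of the 15908 genes lay below 0 and 6217 above it, the background for counts by sign in the lists. In 42 genes (0.264%) every KO library was above every WT library, and in 36 (0.226%) every one was below. When only the 10 KO and WT libraries under IL4 were fitted, so that no other group informed the spread, 2 calls were left, Tbk1 and Rpsa. With 1 library left out at a time between 3 and 7 genes were called: 3 without KO replicate 3, KO replicate 5 or WT replicate 1, and 4 without WT replicate 4.

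**Figure D1:**
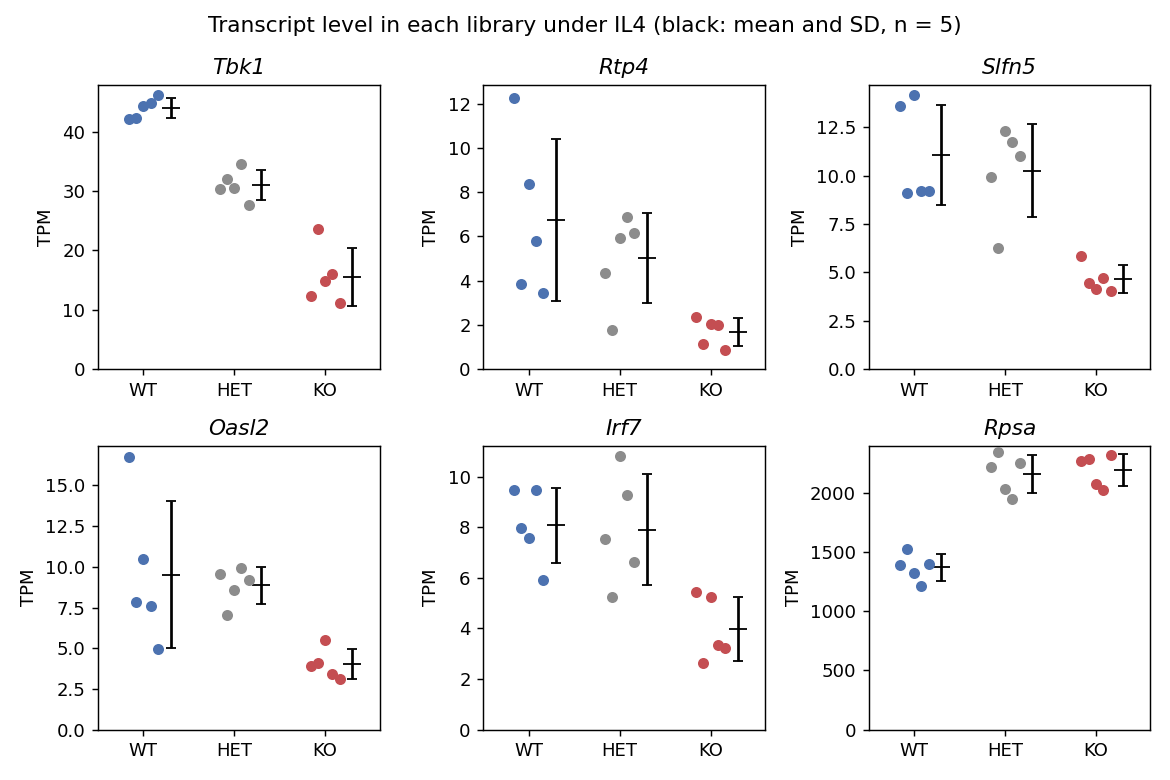
TPM in each library under IL4 (points), by genotype (WT, HET and KO, 5 libraries each), with the group mean and SD in black, on linear axes that start at 0. KO points lie below all WT points for Tbk1, Rtp4, Slfn5 and Irf7, with 1 pair of overlapping libraries for Oasl2, and HET points lie with KO for Rpsa but nearer to WT for Slfn5, Oasl2 and Irf7.

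Both called genes other than Tbk1 that were lower in KO are interferon-stimulated. Rtp4, a chaperone-like transmembrane protein induced by interferon, was at 12.3, 3.87, 8.40, 5.80 and 3.43 TPM in WT and at 2.37, 1.12, 2.02, 1.99 and 0.847 TPM in KO. All KO values lay below the lowest WT value, and WT replicate 1 was the highest. The log2 difference was -1.45 ± 0.29 (SE; 95% interval -2.04 to -0.87; adjusted p = 0.0316, limma), and without WT replicate 1 it was -1.23 with an adjusted p of 0.261. The call of Rtp4 was lost in 7 of the 10 fits that left out 1 library, and that of Slfn5 in 4 of 10. Slfn5, a Schlafen family gene induced by type I interferon, was at 13.6, 9.13, 14.2, 9.21 and 9.20 TPM in WT and at 5.82, 4.47, 4.13, 4.72 and 4.01 TPM in KO. The KO values were tight and well apart from the WT values, and the log2 difference was -1.08 ± 0.20 (SE; 95% interval -1.49 to -0.67; adjusted p = 0.0165, limma). Slfn5 also missed the threshold under median-of-ratios scaling (adjusted p = 0.0755) and without WT replicate 1 (adjusted p = 0.0763).

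The interferon list held 49 tested genes. Beside the 2 called lower and 0 called higher, 18 members were lower and 0 higher at an unadjusted p under 0.05, where 1.36% of all genes were lower. The differences of 42 members were below 0, as were those of 9635 of all 15908 genes tested. The list's median was -0.31, against -0.03 over all genes tested. In 10 members every KO library lay below every WT library, where 0.226% of all genes did so, and in 0 members the reverse held. Besides Rtp4 and Slfn5 these were Mx1, Irf7, Zbp1, Cmpk2, Oas3, Eif2ak2, Ifi204 and Oas2, named after their values were seen. Without WT replicate 1, the library highest in Rtp4 and in oligodendrocyte markers, 15 members were lower at an unadjusted p under 0.05, and with the libraries numbered 5 left out in every group 18 were. When only the 10 libraries were fitted, 28 were lower at that level and 0 higher. The share of all genes at that level is not given for these reduced fits, so their counts have no background beside them.

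Members outside the adjusted threshold are given as values, and their choice followed their values. Irf7, the factor that amplifies type I interferon production and a substrate of TBK1, was at 9.46, 7.97, 7.58, 9.46 and 5.91 TPM in WT and at 5.45, 2.63, 5.24, 3.36 and 3.24 TPM in KO (log2 difference -0.89, unadjusted p = 0.00501, adjusted p = 1 in limma). The groups did not overlap, with KO replicate 1 and WT replicate 5 nearest to each other. Oasl2, an oligoadenylate synthase-like protein, was at 16.8, 7.84, 10.5, 7.60 and 4.95 TPM in WT and at 3.90, 4.09, 5.53, 3.43 and 3.14 TPM in KO. WT replicate 5 fell among the KO libraries, and the difference of -0.99 had an adjusted p of 0.141. Ifit1, which binds viral RNA that lacks cap methylation, was at 0.576 to 2.68 TPM in WT and 0.047 to 0.584 TPM in KO (log2 difference -1.05, adjusted p = 0.409 in limma). Eif2ak2 encodes PKR, the kinase activated by double-stranded RNA, and was more abundant: 18.3 to 21.7 TPM in WT and 14.8 to 18.1 TPM in KO, a small and non-overlapping difference of -0.31 with an adjusted p of 1.

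Several members showed no such difference. Bst2, a tether of budding virions, was at 77.8 TPM in WT and 78.8 TPM in KO, with a 95% interval of the log2 difference from -0.35 to 0.36. Ifitm3, an endosomal restriction factor, and Slfn2 had differences of -0.02 and 0.05. In KO replicates 1 and 2, the libraries with Y-linked reads, Rtp4 was at 2.37 and 1.12 TPM, and in KO replicates 3 to 5 at 0.847 to 2.02 TPM. The part of pup sex in these differences was not tested.

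The 2 genes called and the list were followed into the other groups. HET cultures carry Cre and 1 intact Tbk1 allele. In KO minus HET under IL4 the difference of Rtp4 was -1.12 (95% interval -1.70 to -0.53) and that of Slfn5 was -0.98 (-1.39 to -0.57), and limma called neither (adjusted p = 0.657 and 0.173). Tbk1 was the gene called lower there (0.00629% of genes tested). In HET minus WT their differences were -0.33 (-0.92 to 0.25) and -0.11 (-0.52 to 0.30). For the list the median was -0.32 in KO minus HET, with 18 members lower and 0 higher at an unadjusted p under 0.05, where 1.45% of all genes were lower. In HET minus WT the median was 0.01, with 0 members at that level in either direction, where 1.18% of all genes were higher and 1.07% lower. KO minus HET shares the KO libraries with KO minus WT, and HET minus WT shares its WT libraries, so these values stand side by side and are no independent repeat.

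The same genotypes were compared without the cytokine. In untreated cells Rtp4 was at 13.1 ± 5.52 TPM in WT (SD, n = 4) and 4.10 ± 1.49 TPM in KO (SD, n = 5), a log2 difference of -1.41 (adjusted p = 0.107, limma), and Slfn5 differed by -0.73 (adjusted p = 0.759). The list's median was -0.40, with 22 of 49 members lower and 0 higher at an unadjusted p under 0.05, where 4.53% of all genes were lower. Oasl2 was the member called lower there (-1.27, adjusted p = 0.0180). The test of whether the KO minus WT difference changed with IL4 called 0 of 15908 genes in limma and in every alternative fit run, with 262 at an unadjusted p under 0.05, 1.31% of all genes higher and 0.333% lower, of which 0 were interferon genes. For Rtp4 that change was -0.05 with a 95% interval from -0.90 to 0.81. A call after adjustment over 15908 genes needs a larger change than such an interval for a single gene shows. The 0 calls thus do not exclude changes of that size or somewhat larger.

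Under LPS the list's median KO minus WT difference was larger, with Rtp4 an exception. Rtp4 stood at 413 ± 15.6 TPM in WT and 215 ± 71.2 TPM in KO (SD, n = 5 each), and Irf7 at 1456 ± 153 and 231 ± 199 TPM. The list's median was -1.65, with 48 of 49 members called lower, where 13.2% of all genes were. The test of the difference between the IL4 and LPS contrasts called 40 members, all less negative under IL4, where 7.81% of all genes were called in that direction. Rtp4, Slfn5 and Oasl2 were not among them: their differences between the contrasts were -0.45 (adjusted p = 0.572), 0.21 (0.756) and 0.23 (0.750). Under LPS Slfn5 and Oasl2 had KO minus WT differences of -1.29 and -1.22. An example of a called member is Cmpk2, a mitochondrial nucleotide kinase, at 4.10 ± 1.36 TPM in WT under IL4 and 538 ± 392 TPM under LPS (SD, n = 5 each).

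**Figure D2:**
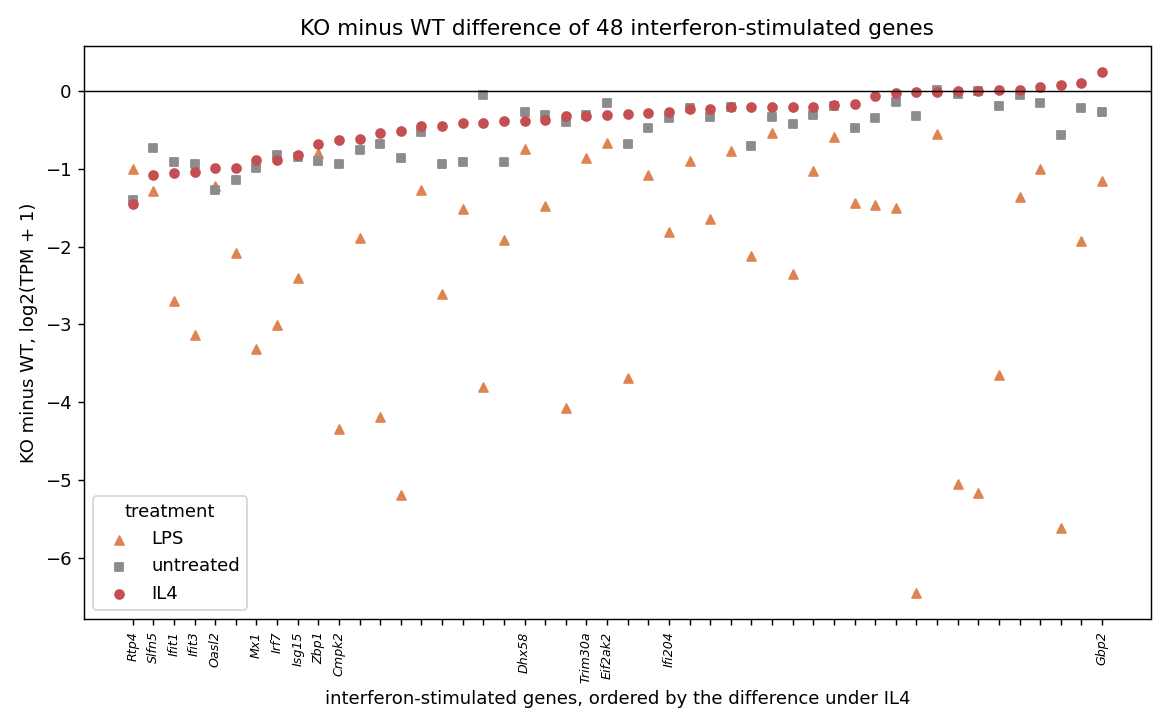
KO minus WT log2 difference of 48 of the 49 interferon-stimulated genes (1 point of each kind per gene; some genes are labelled) in untreated (grey squares), IL4 (red circles) and LPS (orange triangles) cultures, ordered by the value under IL4. The IL4 points run from -1.45 (Rtp4) to 0.24 (Gbp2) and lie near the untreated points, while most LPS points lie far lower.

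Upstream sequence is shown for a called member and for a pair of other members of the list, because 42 of the 49 members had differences below 0. The motif searched was GAAA, then any 2 bases, then GAAA, the core of the interferon-stimulated response element that factors of the IRF family bind, on both strands, in the 250 bases before the transcript start that the RefSeq promoter table uses (GRCm38.p6). For Slfn5 that start lies inside the annotated gene, whose first base is 82951349, so its window does not precede the gene's first base. Capitals mark the matches, which may overlap each other, and sequences run 5′ to 3′ in the direction of the gene.
Slfn5, chr11:82951852-82952101, plus strand: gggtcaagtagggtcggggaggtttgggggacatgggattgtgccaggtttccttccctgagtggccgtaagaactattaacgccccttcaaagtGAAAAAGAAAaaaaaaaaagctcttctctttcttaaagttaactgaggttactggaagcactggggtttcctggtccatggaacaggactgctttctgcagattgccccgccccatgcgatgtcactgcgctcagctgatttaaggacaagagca
Isg15, chr4:156200819-156201068, minus strand: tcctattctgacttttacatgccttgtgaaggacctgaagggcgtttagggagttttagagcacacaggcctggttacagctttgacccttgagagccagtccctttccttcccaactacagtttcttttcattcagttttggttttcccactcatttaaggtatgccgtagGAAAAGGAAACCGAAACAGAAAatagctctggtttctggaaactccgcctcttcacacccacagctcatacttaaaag
Ifit1, chr19:34640639-34640888, plus strand: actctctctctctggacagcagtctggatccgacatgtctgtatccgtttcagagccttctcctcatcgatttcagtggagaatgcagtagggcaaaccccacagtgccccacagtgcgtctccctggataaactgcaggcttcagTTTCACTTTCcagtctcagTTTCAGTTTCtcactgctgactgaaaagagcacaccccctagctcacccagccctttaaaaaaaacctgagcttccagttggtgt
Slfn5 held 1 match, starting 155 bases before the transcript start used. Isg15, a ubiquitin-like modifier, held 3 overlapping matches from 78 bases before the start, and Ifit1 held 2, from 104 and 85 bases before it. Isg15 was at 5.89 ± 2.28 TPM in WT and 2.81 ± 0.997 TPM in KO under IL4 (SD, n = 5 each; log2 difference -0.83, adjusted p = 1). Of the list, 37 genes had such a window and 18 of them held the motif (48.6%), among them 8 of the 12 members lower at an unadjusted p under 0.05, against 2.81% of the 10787 windows of all genes tested. The windows of Oasl2 and Irf7 held no match. A match is a description of these letters and no evidence of binding in these cells.

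Rpsa encodes the 40S ribosomal protein SA, also known as the laminin receptor. It was at 1387, 1525, 1320, 1216 and 1397 TPM in WT and at 2263, 2285, 2072, 2022 and 2317 TPM in KO under IL4. All KO libraries were higher, with a log2 difference of 0.68 ± 0.08 (SE; 95% interval 0.51 to 0.85; adjusted p = 5.75e-06, limma). HET libraries were at 1948 to 2340 TPM, as high as KO: KO minus HET was 0.02 (95% interval -0.15 to 0.19), while HET minus WT was 0.66 (adjusted p = 2.74e-05), with Rpsa and Rpsa-ps10 the genes called higher there (0.0126%). Untreated KO and WT differed by 0.68 as well (adjusted p = 2.08e-05), and the change of that difference with IL4 was 0.00 (95% interval -0.25 to 0.24). The part of Cre or its locus in this difference was not tested.

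Rpsa lies on chromosome 9 at 120127766 to 120132369, 59.5 kb from Cx3cr1 (120048683 to 120068296), whose promoter drives the Cre. Where the Cre sits in the genome was not tested. Between Rpsa and Cx3cr1 lies Slc25a38, a mitochondrial glycine carrier, 42.1 kb from Cx3cr1. It was at 17.1, 14.8, 14.6, 12.5 and 11.6 TPM in WT and at 23.2, 20.7, 23.2, 22.6 and 20.9 TPM in KO under IL4. The groups were apart, with a difference of 0.62 ± 0.13 (SE; adjusted p = 0.0895, limma), called under median-of-ratios scaling (adjusted p = 0.00735) and quantile normalization (adjusted p = 0.00254). Its HET minus WT difference was 0.54 and its KO minus HET difference 0.08. Of the 26 tested genes within 1000 kb of Cx3cr1, the other 24 ran from -0.58 to 0.51, with 2 of them at an unadjusted p under 0.05 and 0 called. Slc25a38 was chosen after its values were seen.

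**Figure D3:**
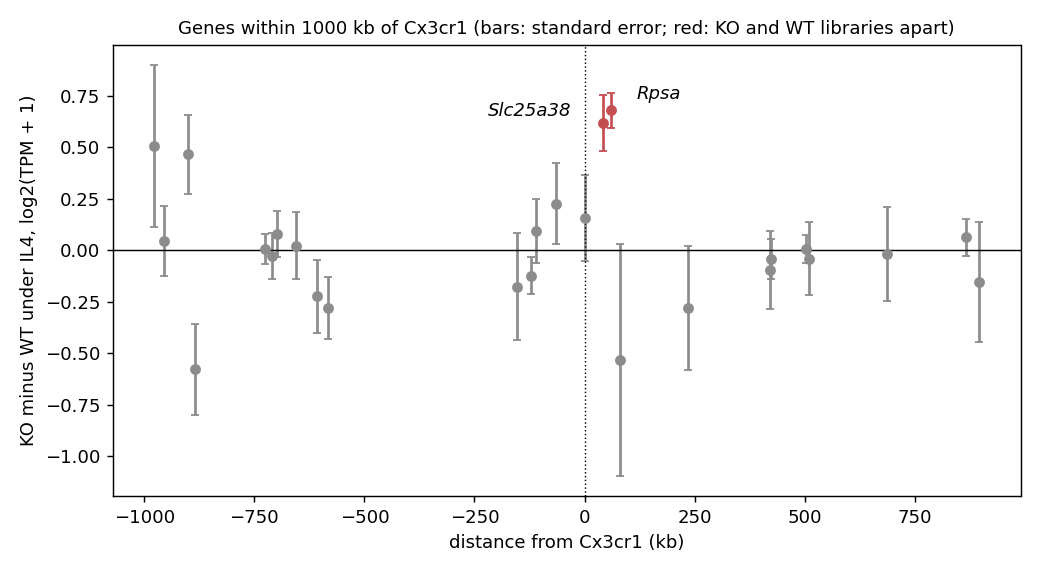
KO minus WT log2 difference under IL4 (vertical axis, bars: standard error) of the 26 tested genes within 1000 kb of Cx3cr1, by distance from that gene in kb. Slc25a38 and Rpsa, at 42.1 and 59.5 kb, stand at 0.62 and 0.68 with KO and WT libraries apart (red), and the other 24 genes lie between -0.58 and 0.51.

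The remaining called genes were Rpsa pseudogenes on other chromosomes. How far their reads can be told apart from those of Rpsa was not tested. Rpsa-ps10 on chromosome 3 was at 95.4 ± 14.4 TPM in WT and 150 ± 19.0 TPM in KO (SD, n = 5 each; log2 difference 0.65, adjusted p = 0.000876 in limma). Rpsa-ps2 on chromosome 10 differed by 0.82 and Rpsa-ps7 on chromosome 17 by 1.00 (adjusted p = 0.0322 and 0.0203). With 1 library left out at a time Rpsa-ps2 lost its call in 8 of 10 fits (adjusted p up to 0.292) and Rpsa-ps7 in 5 of 10 (up to 0.137), and with culture as a random effect both did (0.0858 and 0.0548, limma). Of the 25-base words in the annotated transcripts, 84.4% of those of Rpsa-ps10 and 76.4% of those of Rpsa-ps2 also occur in Rpsa transcripts. The other tested pseudogenes with a measured share were not called. Rpsa-ps5 differed by 0.84 (26.4% shared), Rpsa-ps1 by 0.60 (51.0%), Rpsa-ps9 by 0.53 (61.9%) and Rpsa-ps11 by 0.21 (39.4%). For Rpsa-ps7 this share was not measured. In HET minus WT Rpsa-ps10, Rpsa-ps2 and Rpsa-ps7 differed by 0.54, 0.60 and 0.87.

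The IL4 programme itself was the next question. Among the receptor and STAT6 signalling genes, 19 were tested, 0 were called and 0 reached an unadjusted p under 0.05, with a median difference of 0.05. The receptor chain gene Il4ra was at 31.8, 27.9, 31.6, 26.5 and 24.2 TPM in WT and at 31.4, 25.3, 28.7, 26.7 and 23.3 TPM in KO. These values interleave, and the 95% interval of the log2 difference was -0.27 to 0.13. Stat6, the factor IL4 activates, was at 68.7 ± 5.14 TPM in WT and 73.8 ± 7.54 TPM in KO (SD, n = 5 each; interval -0.07 to 0.27). Il2rg, the shared gamma chain of the receptor, had the highest difference of the list at 0.34 (-0.01 to 0.68), and Socs1, the feedback inhibitor that IL4 induces, was at 7.57 ± 2.02 TPM in WT and 9.06 ± 1.74 TPM in KO (interval -0.15 to 0.66).

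Alternative activation genes were induced by IL4 in both genotypes. Of 36 tested members, 26 were called higher under IL4 than untreated in WT, where 3.68% of all genes were, and 26 in KO, where 5.38% were, and the median response was 1.45 in WT and 1.71 in KO on the log2 scale. Arg1, the arginase that defines the programme, was at 0.202 ± 0.237 TPM in untreated WT (SD, n = 4). Under IL4 it reached 1011, 1767, 1150, 1276 and 1393 TPM in WT and 1687, 1056, 1312, 1785 and 1602 TPM in KO. The values overlap throughout, and the 95% interval of the KO minus WT difference was -0.54 to 0.88. Retnla, a secreted resistin-like protein, was at 363, 1046, 256, 398 and 252 TPM in WT and 963, 577, 444, 328 and 447 TPM in KO, again overlapping (interval -0.12 to 0.87). The spread behind that interval is shared with untreated and LPS groups, where Retnla was near 0 TPM. The interval of Retnla is therefore narrower than the IL4 libraries alone would give. Mrc1, the mannose receptor, was at 150 ± 8.79 TPM in WT and 145 ± 44.6 TPM in KO (SD, n = 5 each; interval -0.69 to 0.48).

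None of the 36 members was called between the genotypes in limma, and 2 reached an unadjusted p under 0.05, both higher in KO, where 1.34% of all genes were higher. These were Chil3, a chitinase-like lectin, and Pdcd1lg2, the checkpoint ligand PD-L2. Chil3 was at 0.502, 2.57, 0.659, 0.987 and 1.14 TPM in WT and 2.85, 0.973, 1.17, 6.37 and 2.81 TPM in KO, a low level with overlap (log2 difference 0.72, unadjusted p = 0.00225). Pdcd1lg2 was at 8.41, 12.4, 10.3, 7.88 and 6.23 TPM in WT and 17.2, 11.6, 11.9, 10.6 and 9.86 TPM in KO, with 1 WT library above most KO libraries (0.40, unadjusted p = 0.00483 in limma). The spread in these tests is shared over 9 groups. In untreated and LPS libraries Chil3 and Pdcd1lg2 stood near 0 TPM with little spread, so these p-values can be too small. The differences of 29 members were above 0 and of 7 below it, where 6217 of all 15908 genes lay above 0. The median was 0.20, against -0.03 over all genes. The median was 0.23 under median-of-ratios scaling and 0.22 under quantile normalization. In KO minus HET under IL4 the list's median was 0.05, and in HET minus WT it was 0.13. Values above 0 included Egr2 (0.33, 95% interval -0.35 to 1.02), an early growth response factor that IL4 induces, Mmp12, macrophage elastase (0.30, -0.84 to 1.45), and Ccl24, an eosinophil attractant (0.48, -0.15 to 1.12). Fn1, fibronectin, had 0.25 (-0.39 to 0.88), Clec7a, the beta-glucan receptor, 0.17 (-0.47 to 0.82), and Igf1 0.10 (-0.43 to 0.63). Values below 0 included Myc at -0.30 (-0.87 to 0.27) and the lectin Mgl2 at -0.07 (-0.49 to 0.36). Mgl2 was also near 0 TPM in untreated and LPS libraries, so its interval can be too narrow. These intervals leave room for differences of the size of most medians given here.

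A wider class of IL4 genes was taken from HET cultures, which enter neither side of KO minus WT but share the spread of the same fit. It held the 190 genes called higher under IL4 than untreated in HET (3.97% of all genes were called) with a log2 difference of at least 1. Of these, 173 were called higher under IL4 in WT and 183 in KO, with median responses of 1.43 and 1.48. Between KO and WT under IL4, 0 of the 190 were called in limma. At an unadjusted p under 0.05, 18 were higher and 0 lower, where 1.34% of all genes were higher and 1.36% lower. A pick by adjusted p in HET favours genes with a small shared spread. The share over all genes is thus no like-for-like background for these 18. Of the 190, 165 lay above 0, as did 6217 of all 15908 genes. The median was 0.18, and when 1 KO or WT library was left out at a time between 145 and 173 members lay above 0. In untreated cells the median KO minus WT difference of these genes was 0.05, in KO minus HET under IL4 it was 0.09 and in HET minus WT 0.09. The 48 genes lowered by IL4 in HET (3.09% of all genes were called lower) had a median of -0.04, with 1 higher and 1 lower at an unadjusted p under 0.05.

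**Figure D4:**
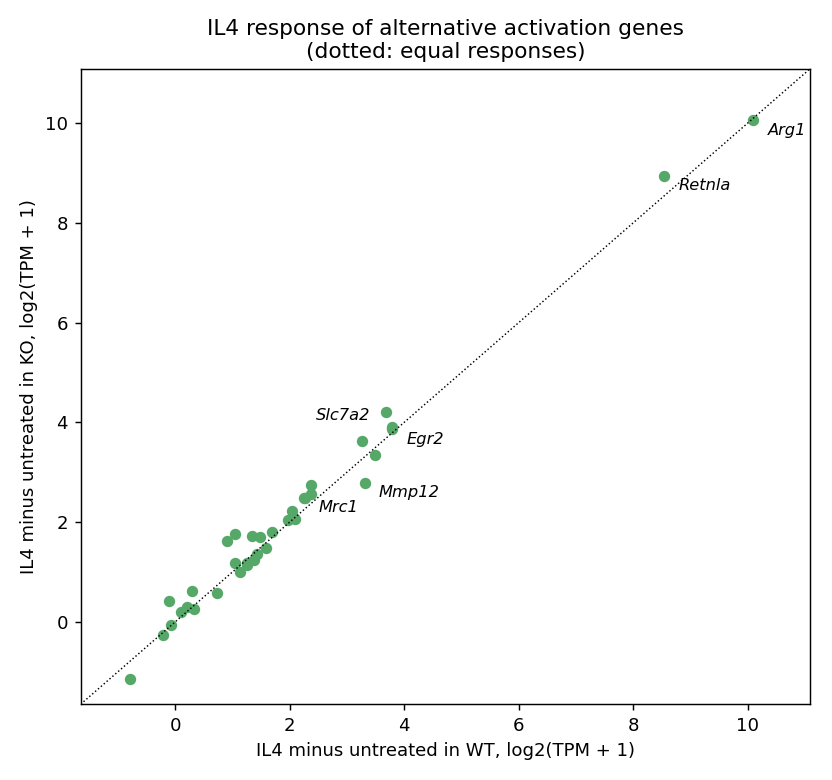
IL4 minus untreated log2 difference of the 36 alternative activation genes in WT (horizontal axis) and KO (vertical axis), 1 point per gene, with the line of equal responses dotted. Points lie along the line from weakly responding genes to Arg1, at 10.09 in WT and 10.06 in KO.

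Of 21 genes for TBK1, its adaptors and its cargo receptors, Tbk1 was called lower and 0 higher, and the median was -0.01. Ikbke, the closest relative of TBK1, was at 15.0 TPM in WT and 20.3 TPM in KO (log2 difference 0.37, 95% interval -0.05 to 0.79, adjusted p = 1 in limma). Autophagy genes (33 tested) had 0 called, 0 at an unadjusted p under 0.05 and a median of -0.01. Genes of RIPK1 signalling and cell death (30 tested) had 0 called and a median of 0.03.

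Inflammatory genes gave 0 calls. Of 36 NF-kB targets and inflammatory cytokines, 7 were higher and 0 lower at an unadjusted p under 0.05, with a median of 0.08. Over all genes 1.34% were higher and 1.36% lower at that level. In KO minus HET the list's median was -0.01, with 0 higher and 1 lower (0.981% and 1.45% of all genes). In HET minus WT it was 0.13, with 2 higher and 0 lower (1.18% and 1.07%). Nfkbia, the inhibitor of NF-kB that NF-kB itself induces, was at 42.7, 36.0, 41.3, 33.6 and 32.0 TPM in WT and 48.8, 43.1, 44.9, 51.6 and 43.9 TPM in KO. The groups lay just apart (log2 difference 0.32, adjusted p = 1 in limma), while HET libraries, at 34.0 to 56.6 TPM, spanned both. Ptgs2, cyclooxygenase-2, was also apart between the groups, at 1.45 TPM in WT and 2.34 TPM in KO (0.44, adjusted p = 1). Among 27 chemokines Cxcl16, a transmembrane chemokine, was higher in all KO libraries, at 121 to 132 TPM against 96.5 to 116 TPM in WT (0.31, adjusted p = 1). The interleukin genes Il6 and Il12b and Nos2, which encodes inducible nitric oxide synthase, stood on average below 1 TPM in both genotypes. Ptgs2, Cxcl16 and these genes were named after their values were seen.

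Antigen presentation and identity lists held 0 called genes. The MHC class II list had 14 of 15 members above 0, where 6217 of all 15908 genes were, with a median of 0.27. At an unadjusted p under 0.05, 1 member was higher, where 1.34% of all genes were. The list's median was 0.15 in KO minus HET, 0.15 in HET minus WT and 0.07 in untreated KO minus WT. Ctss, the protease that trims the invariant chain, was at 4139 TPM in WT and 4647 TPM in KO (0.17, 95% interval -0.04 to 0.39). The MHC class I list of 23 had a median of 0.00, with 2 lower and 0 higher at an unadjusted p under 0.05 (1.36% and 1.34% of all genes). Homeostatic microglia genes (24 tested) had a median of 0.01 with 0 at an unadjusted p under 0.05: Cst3, cystatin C, was at 2536 TPM in WT and 2710 TPM in KO. Disease-associated microglia genes (35 tested) had a median of 0.10 and 3 members higher at an unadjusted p under 0.05 (1.34% of all genes), with Apoe at 43880 TPM in WT and 44847 TPM in KO and Lyz2, lysozyme, at 14575 and 19070 TPM (0.42, unadjusted p = 0.0371, adjusted p = 1). Lysosome genes (40 tested) had a median of 0.08, with 35 above 0 (6217 of all 15908 genes were) and 1 higher at that level. Ctsd, cathepsin D, was at 9416 TPM in WT and 10307 TPM in KO. Scavenger, Fc and complement genes (29 tested) had a median of 0.10.

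Metabolic and growth lists gave 0 calls as well. The medians were 0.07 for glycolysis (21 tested), 0.02 for nuclear genes of oxidative phosphorylation (33), -0.03 for cholesterol synthesis and efflux (28), 0.09 for NRF2 targets (21) and 0.02 for the integrated stress and unfolded protein responses (23). Immediate early genes (22) had a median of 0.10. Cell cycle genes had 38 of 42 members below 0, where 9635 of all 15908 genes were. Their median was -0.20, with 0 at an unadjusted p under 0.05. The cell cycle median was 0.03 in KO minus HET and -0.21 in HET minus WT. The medians of oligodendrocyte markers were -0.09 in KO minus HET and -0.41 in HET minus WT, and their part in the cell cycle values was not tested.

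Against LPS, the genotype effect under IL4 was distinct over many genes, few of which were called under IL4 itself. KO minus WT called 2283 genes higher (14.4%) and 2100 lower (13.2%) under LPS, against 4 and 3 under IL4. The test of the difference between the contrasts called 2493 of 15908 genes, 1243 higher and 1250 lower (7.86%) under IL4. Genes named by the fixed rule among the higher ones were Irf7 (2.12), Ifi204, an interferon-inducible DNA sensor (1.55), H2-K2, a class I gene model of the major histocompatibility locus that RefSeq annotates as a transcribed pseudogene (1.58), Nfkbia (0.98) and Tbk1 itself (0.82). Tbk1 in WT stood at 90.9 ± 8.37 TPM under LPS against 44.0 ± 1.69 TPM under IL4, with KO at 18.0 ± 5.14 and 15.6 ± 4.89 TPM (SD, n = 5 each). Among the lower ones were Hebp1, a heme-binding protein (-1.95), P2ry13, an ADP receptor (-1.77), Traf3ip3, a TRAF3-binding adaptor (-1.38), Fgf13 (-1.17) and Uevld (-0.56). Traf3ip3 was at 19.1, 23.7, 21.1, 18.0 and 26.2 TPM in WT and 15.6, 13.8, 14.8, 15.3 and 12.1 TPM in KO under IL4, lower in all KO libraries (-0.55, adjusted p = 1 in limma), and under LPS it was at 7.70 TPM in WT and 13.9 TPM in KO. P2ry13 was at 11.0 ± 0.718 TPM in WT and 8.40 ± 1.11 TPM in KO under IL4 (SD, n = 5 each). Under LPS it was at 5.39 ± 1.34 TPM in WT and 17.1 ± 7.56 TPM in KO. Its KO mean was thus the lower under IL4 and the higher under LPS. The fixed rule took only genes without overlap between KO and WT libraries under IL4. Neither Traf3ip3 nor P2ry13 was called under IL4, so a reversal of direction was not established.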

How the data were processed

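RNA sequencing libraries of primary mouse microglia were made from 300 ng of RNA with the Kapa mRNA Hyperprep kit, per the labels' protocols. The authors deposited TPM per gene for 44 untreated, LPS and IL4 libraries (32070 genes). FastQC, Trimmomatic, DRAGEN and Picard, and the build mm10, are listed without roles per the submitters' processing notes. Whether counting used strand: not given in the sources used here. TPM keeps no depth, so no counting error could be given. The table of poly(I:C) libraries was not used here.

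Tests used log2(TPM + 1), a scale on which changes of low genes come out too small. The 15908 genes that reached 1 TPM in 4 or more of the 44 libraries were tested. limma 3.58.1 (R 4.3.3; lmFit with a mean for each of 9 groups, eBayes with a trend) gave moderated tests, adjusted by the Benjamini-Hochberg method over all genes tested and called at 0.05; intervals are 95%. The 9 groups share a single estimate of the spread per gene, which can be too small for genes near 0 TPM in some groups. The code was tested on simulated data. Gene lists (31) are described by counts and medians; single values of some members are not reported here. The members and lists were chosen with earlier results of these data known. The rule for named genes took Tbk1 and Cx3cr1, the called genes with the largest differences, at least 5 TPM and no overlap between libraries, and members of each list; gene models whose symbols mark them as predicted or as pseudogenes were left out by it, which does not catch H2-K2. The Rpsa pseudogenes are named because they complete the 7 calls. Alternatives are given in the closing section. Of the tested genes, 14808 matched RefSeq (GRCm38.p6) by Entrez identifier.

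Replicate numbers were checked by correlating deviations from group means. IL4 and untreated libraries of the same genotype and number correlated at 0.173 to 0.558 in KO and 0.191 to 0.418 in WT. They may thus share cultures, but the main tests, IL4 minus untreated included, treated all libraries as independent. Only 1 alternative fit used culture, as a random effect (correlation 0.308). There the IL4 responses of KO and WT still differed for 0 genes.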

Additional observations from a re-analysis of the deposited data

Results flagged for a closer look

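Single libraries stood apart from the other 4 of their group in 8 of 112 pairs of a gene and a group examined, where chance gives about 1 in 20. Cx3cr1 was low in KO replicate 5, at 229 TPM. Ifi204 was low in WT replicate 4, at 67.0 TPM. WT replicate 2 was high in Retnla (1046 TPM), in Mgl2 (18.5 TPM) and in Cxcl16 (116 TPM). Pdcd1lg2 was high in KO replicate 1, at 17.2 TPM, and Fn1 was low in KO replicate 3, at 480 TPM. H2-K2 stood apart in KO replicate 2, at 9.24 TPM.

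The KO minus WT difference under IL4 differed from that under LPS for 2493 genes in limma's test of the difference itself. Values are the log2 difference under IL4 minus that under LPS. Of the genes listed here, only Tbk1, Rpsa and Rpsa-ps10 were called between KO and WT under IL4 itself. Among interferon genes it was 1.64 for Ifit1, 2.12 for Irf7, 2.43 for Mx1, 3.72 for Cmpk2, 1.55 for Ifi204, 1.57 for Isg15, 0.54 for Trim30a and 2.09 for Ifit3. Among genes tied to IL4 activation it was 2.05 for Arg1, -1.89 for Mrc1, 0.36 for Stat6, -2.11 for Egr2 and -3.36 for Fn1. Inflammatory and antigen presentation genes gave 0.98 for Nfkbia, 3.62 for Ptgs2, 0.58 for Ctss and 1.58 for H2-K2. Microglial genes gave -1.20 for Cx3cr1, -1.77 for P2ry13, -2.64 for Trem2 and -1.20 for Lyz2. The others were Tbk1 (0.82), Rpsa (-0.50), Rpsa-ps10 (-0.53), Traf3ip3 (-1.38), Hebp1 (-1.95), Fgf13 (-1.17) and Uevld (-0.56).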

How the results depend on the processing

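No result changed direction past its threshold. For KO minus WT under IL4 (7 calls), 2 genes were called with only the groups compared in the fit, 11 with the replicate number as a block and 4 with culture as a random effect, an alternative chosen after seeing the data. The block added Mmp14, Oasl2, Pla2g7 and Slc25a38, but same-numbered KO and WT libraries correlated at -0.03 to 0.52, so the numbers do not establish pairs. The interferon count (18) was 28 with only the groups compared, a fit for which the share over all genes is not given. For KO minus HET (1 call), 4 genes were called with a pseudocount of 0.1 and 0 with only the groups compared. For HET minus WT (2 calls), 1 was called without the filter, 1 without the trend, 1 with culture as a random effect and 0 with only the groups compared. For untreated KO minus WT (5 calls), 10 were called without the filter, 3 under median-of-ratios scaling and 3 with only the groups compared. Leaving out 1 library at a time gave 3 to 7 calls for KO minus WT under IL4, 1 to 3 for KO minus HET, 1 to 3 for HET minus WT and 2 to 5 in untreated cells. Rtp4 also missed the threshold without the filter (adjusted p = 0.058), under median-of-ratios scaling (0.0573), quantile normalization (0.0505), culture as a random effect (0.0828) and with only the groups compared (0.996) in limma. Tbk1 and Rpsa were called in every alternative run. Median-of-ratios scaling moved the median of all genes from -0.03 to 0.00. Depth is unknown, so genes near 1 TPM, such as Ifit1, have no counting error.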
